A study of Mus musculus with 4 samples.

Results

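Rab GTPases are the small GTP-binding proteins that give each membrane compartment of the cell its identity. A Rab is switched on by an exchange factor that loads GTP and switched off by a GTPase-activating protein, and in the GTP form it recruits effectors that move, tether and fuse vesicles. Newly made Rabs are handed by an escort protein to a prenyl transferase, which adds the lipid tails that hold them on membranes. In migrating fibroblasts, Rabs of early and recycling endosomes are known for carrying integrins from and back to the surface, and Rabs of exocytic vesicles for delivering membrane to the leading edge.

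The members were every probe set of the mouse array whose only annotated gene symbol is Rab followed by a number, with an optional letter and digit. Rab13 was left out by that rule, as was every gene whose name only begins with a Rab (Rab effectors and Rab GAP subunits, for example). This gave 131 of 45037 non-control probe sets, for 58 of the 18193 genes that have a probe set of their own. Of these genes, 20 had 1 probe set and 38 had several, up to 7 for Rab14 and Rab2a. The rule used names and no measured value, although the members were chosen with earlier results of these data known. Testing was limited to genes whose brightest probe set had a mean log2 value over the 4 arrays at or above the median of all non-control probe sets (log2 of 5.42, an intensity of 42.0), which kept 44 Rab genes and 86 Rab probe sets.

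RNA came from NIH/3T3 cells, an established line of mouse embryo fibroblasts, held without serum above a porous membrane whose lower face carried fibronectin. All samples shared this treatment of 1 h, fixation in 0.3% formaldehyde for 10 min and reversal of the crosslinks at 70 °C for 45 min. The groups differ only in the face of the membrane that was kept: pseudopodia from below, after the cell bodies had been wiped away, or cell bodies from above, after the pseudopodia had been wiped away. Each compartment has 2 arrays. The labels do not state separate cultures, so a p-value here measures only how far these samples vary, and that variation may be technical.

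Across the 4 arrays, median intensities ran from 40.5 to 45.6, and 30.5% to 34.8% of probe sets lay at the deposited floor of 20, where a reading is only an upper bound. Of 8 fibroblast markers, 7 passed the filter and Thy1 lay at the floor on all arrays. Their summed intensity was 40475 and 40416 in pseudopodia against 59711 and 54668 in cell bodies, with 4 lower and 0 higher. Of 5 haematopoietic markers 1 passed the filter (summed intensity 155 to 171 on the 4 arrays), with Itgam at the floor throughout and Ptprc at or near it. All 6 epithelial markers passed and 0 were called, at 2705 and 2607 in sum against 3772 and 2928. Of 4 nuclear RNAs, 1 was called lower in pseudopodia, Neat1, and the 4 summed to 2525 and 3182 against 4990 and 4824. Kcnq1ot1 was also lower on both pseudopodia arrays without passing the test. Malat1 (1362 and 1885 against 2030 and 1628) and Meg3 (118 and 175 against 122 and 129) overlapped. For the Actb control probe sets, 3' signal exceeded 5' signal by a log2 value of 0.56 and 0.65 in pseudopodia and 0.37 and 0.36 in cell bodies. The same measure for the Gapdh control was -0.075 and -0.066 in pseudopodia and -0.095 and -0.098 in cell bodies. Whether these differences between the preparations had a part in the Rab values was not tested.

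The median difference of the Rab genes lay close to that of all genes, with a few members well away from it. Rab5a and Rab8b were higher in pseudopodia and Rab5b was lower, and the other 41 tested Rab genes did not pass the test. The test was limma's, with Benjamini-Hochberg adjustment over all 11320 genes at a threshold of 0.05. Thus 2 of 44 (4.55%) were called higher, against 5.92% of all genes, and 1 of 44 (2.27%) was called lower, against 8.69%, shares that do not stand above the background in either direction. At an unadjusted p under 0.05 in that fit, 11 of 44 Rab genes were higher and 2 lower, against 1697 and 1856 of 11320 genes. The Rab genes thus leaned to pseudopodia at this looser threshold, and the lean was not tested. These Rab counts were 7 and 2 after median centring and 13 and 2 after quantile normalization. With quantile normalization of the arrays the adjusted calls among Rab genes were 5 higher and 1 lower. Those over all genes, in both directions, were then 1736 of 11318, against 1654 of 11320 before. The median log2 difference, pseudopodia minus cell bodies, was 0.03 over the tested Rab genes and -0.0020 over all tested genes. Differences were above 0 at 25 of the 44, against 49.7% of all genes. This split moved with the scaling: it was 20 of 44 after median centring and 33 of 44 after quantile normalization. The median over all genes moved as well, to -0.036 after median centring and 0.053 after quantile normalization. The Rab medians were then -0.0060 and 0.14, so the Rab median stayed above that of all genes in both. A value on these arrays is a share of the RNA in a preparation, so more copies of a Rab message in a compartment and less of the other RNA there cannot be told apart.

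**Figure D1:**
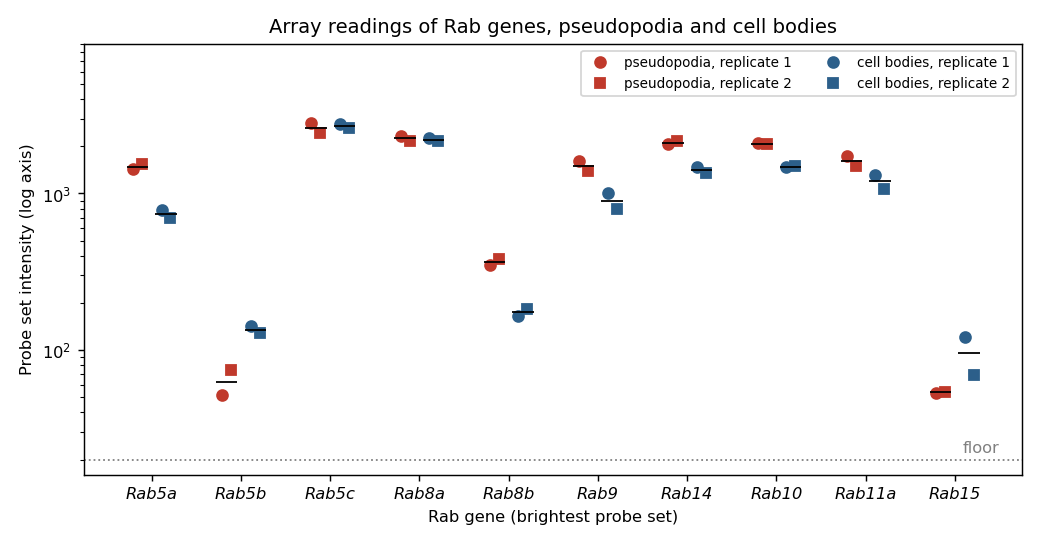
Probe set intensity on a log axis for 10 Rab genes, each at its brightest probe set. Red marks are pseudopodia arrays and blue marks cell body arrays (circles replicate 1, squares replicate 2), with black lines at the group means. Rab5a and Rab8b sit about 2-fold higher in pseudopodia, Rab5b sits lower, and Rab5c and Rab8a overlap. The dotted line is the floor of 20.

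The Rab5 proteins drive fusion of early endosomes and the first sorting of internalized receptors, and the 3 paralogues did not behave alike. Rab5a read 1434 and 1532 in pseudopodia against 785 and 698 in cell bodies, so that every pseudopodia reading lay above every cell body reading. It rose 2.00-fold, by 1.00 on the log2 scale (SE 0.14, adjusted p = 0.0194), from 741 ± 61.6 to 1483 ± 69.1 (SD, n = 2). Rab5b went the other way, at 51.8 and 74.1 in pseudopodia against 142 and 128 in cell bodies. It fell by 1.11 on the log2 scale (SE 0.21, adjusted p = 0.0337), which is 2.16-fold higher in cell bodies. A second Rab5b probe set read 49.7 and 20 against 82.0 and 64.4, with 1 pseudopodia reading at the floor. Its log2 difference was -1.17 (SE 0.45, adjusted p = 0.171 in the fit of single probe sets), so both probe sets point to the cell bodies, the second without passing the test. Rab5c read 2821 and 2444 against 2770.5 and 2612, readings that overlap, and the log2 difference was -0.03 (SE 0.14, adjusted p = 0.901). Rab5a and Rab5c each rest on 1 probe set.

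The ratio of one paralogue to another within an array is not changed when a whole array is multiplied by 1 factor, although quantile normalization can move it. The log2 ratio of Rab5a to Rab5b was 4.77 and 4.35 in pseudopodia against 2.45 and 2.43 in cell bodies, a shift of 2.11 (SE 0.21) that was 2.20 after quantile normalization. For Rab5a to Rab5c the shift was 1.04 (SE 0.16), from -1.82 and -1.90 in cell bodies to -0.98 and -0.67 in pseudopodia, and for Rab5b to Rab5c it was -1.08 (SE 0.36). The 95% interval of the Rab5b to Rab5c shift, on 2 residual degrees of freedom, ran from -2.63 to 0.47 and includes 0. Those of Rab5a to Rab5b (1.22 to 3.01) and Rab5a to Rab5c (0.36 to 1.71) do not. In each of these 3 comparisons the compartments did not overlap. A two-sided exact permutation test gave p = 0.333 for each, the smallest value that 2 arrays against 2 allow, so no paralogue comparison could pass a threshold of 0.05 by that test.

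Rab8a and Rab8b, close relatives that deliver Golgi and recycling vesicles to the plasma membrane, differed in the same manner. Rab8b read 348 and 382 in pseudopodia and 164 and 184 in cell bodies, with no overlap. It rose 2.09-fold, by 1.06 on the log2 scale (SE 0.14, adjusted p = 0.0187), from 174 ± 14.2 to 365 ± 23.9 (SD, n = 2). Rab8a read 2337 and 2149.9 against 2245 and 2151, and its readings overlap, at a log2 difference of 0.03 (SE 0.13, adjusted p = 0.910). A second, dimmer Rab8a probe set gave 0.25 (SE 0.22), also with overlap. The log2 ratio of Rab8a to Rab8b was 2.74 and 2.49 in pseudopodia and 3.77 and 3.54 in cell bodies, a shift of -1.03 (SE 0.17) without overlap that was -0.36 with the mean over the probe sets of each gene. The other probe set of Rab8b lay at the floor on all 4 arrays, so its rise rests on 1 probe set, and the mean over both gives a log2 difference of 0.53. Rab10, of the same exocytic branch as Rab8 and known for GLUT4 vesicles and polarized delivery, read 2099.5 and 2056 against 1468 and 1489 without overlap. Its log2 difference of 0.49 (SE 0.13) did not pass the test (adjusted p = 0.0657).

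Those 3 calls rest on the 4 arrays together and depend on the filter. Dropping any 1 of the 4 arrays leaves 1 array in a group, too few to judge a call of any gene, so only the differences are given. The differences then ran from 0.92 to 1.09 for Rab5a, from 0.98 to 1.15 for Rab8b and from -1.37 to -0.86 for Rab5b. Without the filter on dim genes 0 of 58 Rab genes were called by limma, against 2 of all 18193 genes. There 8 Rab genes were higher and 2 lower at an unadjusted p under 0.05, against 3844 of all genes in both directions. With a minimum mean intensity of 100 Rab5b was no longer tested.

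**Figure D2:**
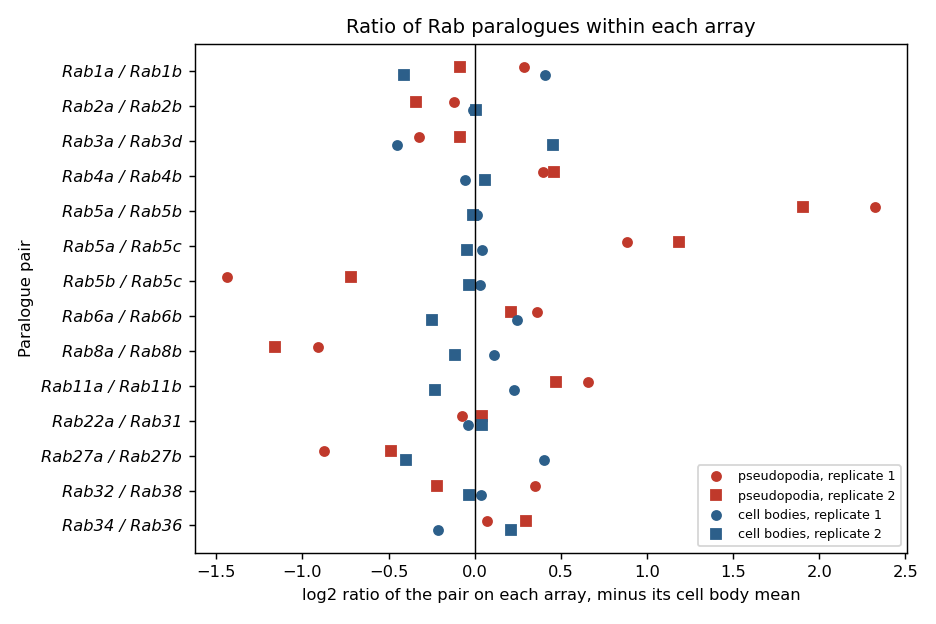
Log2 ratio of the members of 14 paralogue pairs on each array, with the mean of the cell body arrays set to 0 for each pair. Red marks are pseudopodia, blue marks cell bodies, circles replicate 1 and squares replicate 2. The Rab5a to Rab5b ratio moves furthest, by 2.11, and pairs such as Rab22a and Rab31 overlap.

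Of the paralogue families listed for comparison, 12 had at least 2 tested members, which gave 14 pairs. Rab7 and Rab7b were not listed as a family and their ratio was not computed. Between compartments 8 of the 14 pairs did not overlap. The share among pairs of other genes was not computed, so this count does not set Rab paralogues apart. Of all tested single genes, 29.5% were separate above and 31.4% separate below. Beside the Rab5 and Rab8 pairs, the pairs without overlap were Rab2a and Rab2b, Rab4a and Rab4b, Rab11a and Rab11b, and Rab27a and Rab27b. Rab4a and Rab4b act in fast recycling from early endosomes. Rab4a read 725 and 714 in pseudopodia against 592 and 543 in cell bodies, while Rab4b read 1079.995 and 1018 against 1210.1 and 1026. The log2 ratio of Rab4a to Rab4b thus rose from -1.03 and -0.92 in cell bodies to -0.57 and -0.51 in pseudopodia, a shift of 0.43 (SE 0.07). Rab11a and Rab11b serve the slower perinuclear recycling route. The log2 difference of Rab11a was 0.44 (SE 0.17, adjusted p = 0.159) and that of Rab11b -0.12 (SE 0.14, adjusted p = 0.605). Their ratio shifted by 0.56 (SE 0.25), with a 95% interval on 2 residual degrees of freedom from -0.49 to 1.62 that includes 0. Without probe sets that may match several transcripts this shift was 0.84. The intervals of Rab2a to Rab2b (-0.70 to 0.24) and Rab27a to Rab27b (-2.60 to 1.24) also include 0, and that of Rab4a to Rab4b (0.15 to 0.71) does not.

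Several pairs showed no separation. Rab1a and Rab1b, which control traffic from the endoplasmic reticulum to the Golgi, had log2 differences of 0.06 and -0.04, and their ratio shifted by 0.10 with an interval from -1.83 to 2.03. Rab22a and Rab31, relatives of Rab5 at early endosomes and the trans-Golgi, had -0.0085 and 0.0068, with a ratio shift of -0.02 (interval -0.32 to 0.29). The overlapping pairs Rab3a and Rab3d, Rab6a and Rab6b, Rab32 and Rab38, and Rab34 and Rab36 shifted by -0.21, 0.29, 0.07 and 0.18, with SE from 0.24 to 0.47. These intervals are wide, so the values do not show that such paralogues are distributed alike.

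**Figure D3:**
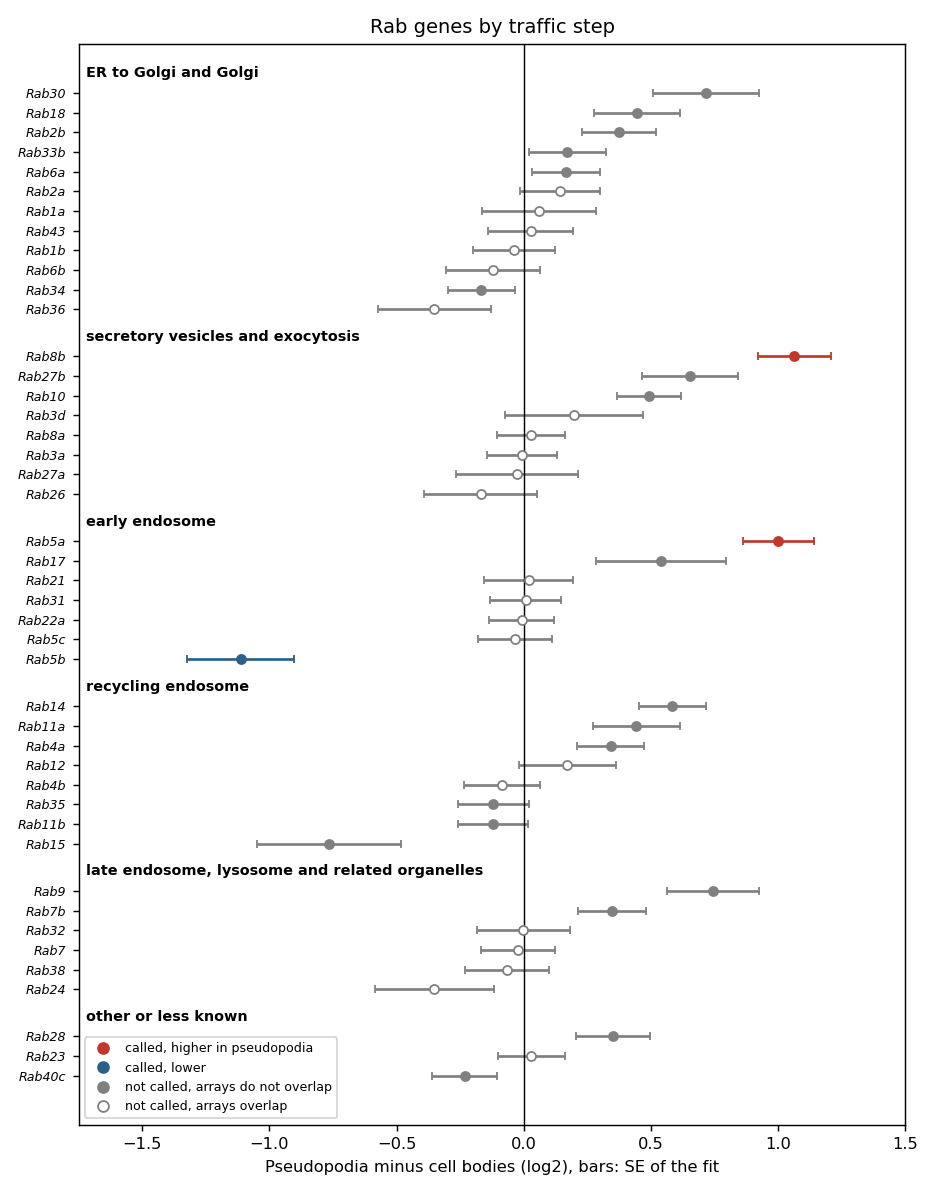
Log2 difference, pseudopodia minus cell bodies, of the 44 tested Rab genes at their brightest probe set, grouped by traffic step, with the SE of the limma fit as bars. Red and blue are called genes, filled grey marks are uncalled genes whose arrays do not overlap, and open marks overlap. Rab8b and Rab5a lie at 1.06 and 1.00, and Rab5b at -1.11.

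Without regard to the test, 16 of 44 Rab genes (36.4%) had both pseudopodia arrays above both cell body arrays, against 29.5% of all tested genes, and 6 (13.6%) had both below, against 31.4%. The uncalled members among them had log2 differences from 0.16 to 0.74 above 0 (14 genes) and from -0.77 to -0.12 below 0 (5 genes). The steps of the pathway are described in turn.

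Rabs of the early secretory pathway and Golgi gave no call, with 12 of 16 tested, a median of 0.10 and 5 separate above against 1 below. Rab30, a Golgi Rab, read 61.6 and 48.1 in pseudopodia and 37.6 and 28.6 in cell bodies, at a log2 difference of 0.71 (SE 0.21, adjusted p = 0.0859). That Rab30 probe set may match several transcripts, and the other one lay at the floor on all 4 arrays. Rab18, of the endoplasmic reticulum and lipid droplets, read 721 and 578 against 499.6 and 450.4, at 0.44 (SE 0.17, adjusted p = 0.153). A dimmer Rab18 probe set read 156 and 53.1 against 127 and 96.3, which overlap, at -0.28, and the mean over both gave 0.084, so no direction can be given for Rab18. Rab2b had 0.37 (adjusted p = 0.161), with tested probe sets that ran from -0.24 to 0.38, Rab33b, an autophagy-linked Golgi Rab, 0.17, and Rab6a, which governs retrograde Golgi transport, 0.16. Below 0 and separate was Rab34, which acts at the Golgi and in cilium formation, at 4356 and 4009 against 4751 and 4635 (log2 difference -0.17, adjusted p = 0.456). Rab36, Rab43 and Rab6b had -0.35, 0.03 and -0.12, all with overlap.

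Exocytic Rabs held 1 call, Rab8b, among 8 of 11 tested, with a median of 0.11 and 3 separate above. Beside Rab8b and Rab10 the third was Rab27b, which docks secretory granules, at 88.2 and 66.3 against 45.5 and 51.2 (log2 difference 0.65, SE 0.19, adjusted p = 0.0844). That Rab27b probe set may match several transcripts, and the other Rab27b probe sets were too dim to be tested and overlapped. Rab27a overlapped at -0.03. The synaptic vesicle Rab3a, Rab3d and the granule Rab26 had differences of -0.0070, 0.20 and -0.17, and all 3 overlapped.

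Early endosome Rabs held the calls of Rab5a and Rab5b among 7 of 8 tested, with a median of 0.0068. Rab17, best known from epithelial recycling, was separate above at 101 and 163 against 84.5 and 91.7 (log2 difference 0.54, SE 0.25, adjusted p = 0.228). This value was 0.20 without pseudopodia replicate 2 and 0.88 without pseudopodia replicate 1. Rab21, which binds integrin tails and drives their endocytosis, read 2563 and 2408 against 2156 and 2790.5 and overlapped at 0.02 (adjusted p = 0.959). The second probe set of Rab21 read 367 and 387 against 209.9 and 282, at 0.63 (SE 0.20, adjusted p = 0.112 in the fit of single probe sets). The result for Rab21 thus depends on the probe set that is read.

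Recycling Rabs gave no call among 8 of 9 tested, with a median of 0.04, and 3 separate on each side. Rab14, which moves cargo between endosomes, Golgi and surface, read 2069.8 and 2159 in pseudopodia and 1469 and 1354 in cell bodies. Its log2 difference of 0.58 (SE 0.13) lay just short of the threshold (adjusted p = 0.0500281). Rab15, an inhibitor of early endosome traffic, had the lowest value after Rab5b, at 53.4 and 53.9 against 121 and 69.7 (log2 difference -0.77, SE 0.28, adjusted p = 0.145). Its 2 cell body readings lay further apart than the lower of them lay from the pseudopodia, and the difference was -0.37 without cell body replicate 1 and -1.16 without cell body replicate 2. Rab35, which recycles to the plasma membrane and acts on cell protrusion, was separate below at -0.12 (adjusted p = 0.623), and Rab12 overlapped at 0.17.

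Rabs of late endosomes, lysosomes and related organelles gave no call among 6 of 8 tested, with a median of -0.01. Rab9, which returns mannose 6-phosphate receptors from late endosomes to the Golgi, had the largest difference above 0 that missed the threshold. It read 1619.8 and 1383 in pseudopodia against 1004 and 795 in cell bodies, at a log2 difference of 0.74 (SE 0.18, adjusted p = 0.0587). Rab7, the main Rab of late endosomes, read 4281 and 3644 against 3947 and 4076, and its readings overlap (log2 difference -0.02, adjusted p = 0.939). Rab7b read 179 and 199 against 147 and 149 (log2 difference 0.35, adjusted p = 0.159). Rab24, linked to autophagy, was at -0.35 (adjusted p = 0.376, and from -0.59 to -0.11 with 1 array left out), Rab38 at -0.07 and Rab32 at -0.0023, each with overlap.

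Of the remaining Rabs, 3 of 6 were tested and none was called, by limma with 0 also at an unadjusted p under 0.05. Rab28, a ciliary Rab, was separate above at 0.35 (SE 0.14, adjusted p = 0.180), Rab40c, a Rab with a ubiquitin ligase domain, separate below at -0.23 (SE 0.13, adjusted p = 0.292), and Rab23, a regulator of Hedgehog signalling, overlapped at 0.03. In all, 6 uncalled Rab genes were called under at least 1 alternative that kept all 4 arrays. The same count over all genes was not made, so it does not set Rabs apart. Calls over all genes also moved, for example from 1654 to 2564 of 11320 with a variance trend. Over the 9 alternatives that kept all 4 arrays, Rab9 was called in 7 (adjusted p from 0.00833 to 0.206), Rab14 in 5 (0.00526 to 0.184) and Rab10 in 3 (0.00993 to 0.150). Rab11a was called in 2 (0.0414 to 0.323), Rab15 in 1 of 7 in which it was tested (median centring, with p-values over the 7 from 0.0473 to 0.414) and Rab30 in 1 of 6 (the replicate block, 0.0298 to 0.282). The brightest readings among Rab probe sets, which do not rank their messages, were those of Rab34, Rab1a and Rab7.

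The 14 untested Rab genes were Rab3b, Rab3c, Rab9b, Rab19, Rab20, Rab25, Rab29, Rab33a, Rab37, Rab39, Rab39b, Rab40b, Rab42 and Rab44. Their brightest probe sets read between 20 and 46.5 on all arrays. Rab9b, Rab29, Rab33a and Rab40b lay at the floor on all 4 arrays. Several of the 14 are known from other tissues, among them Rab3b and Rab3c from neurons, Rab25 from epithelia and Rab37 from secretory cells. In all, 17 Rab probe sets lay at the floor on every array.

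**Figure D4:**
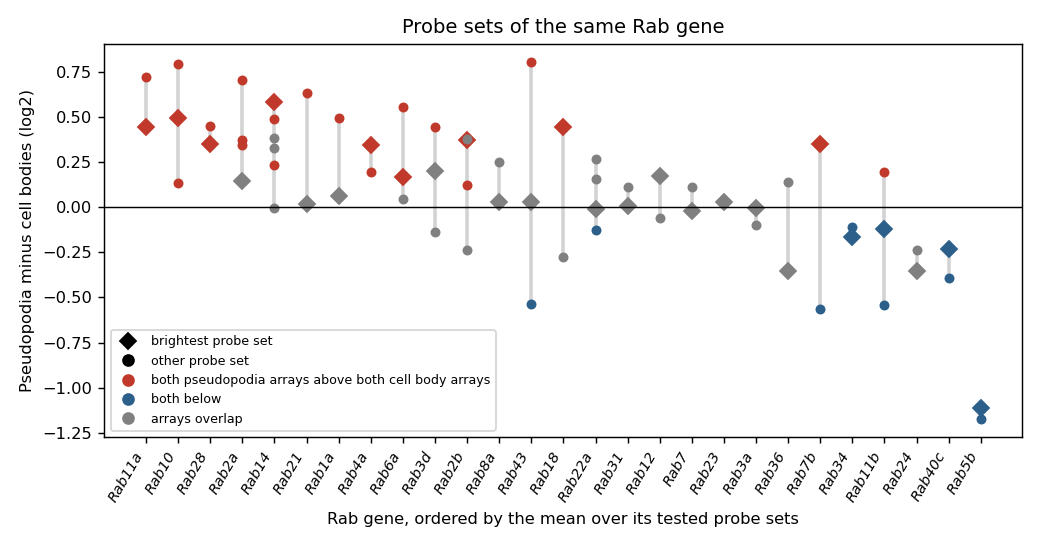
Log2 difference of each tested probe set of the 27 Rab genes with at least 2 of them. Diamonds are the brightest probe set of a gene and circles the others, with red for both pseudopodia arrays above both cell body arrays, blue for both below and grey for overlap. Probe sets of Rab43 span 1.34 while both probe sets of Rab5b lie below -1.11.

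In the fit of 22519 single probe sets, the same 3 genes held the calls. Of 86 tested Rab probe sets, 2 were called higher (2.33%, against 4.3% of all probe sets), those of Rab5a (adjusted p = 0.0291) and Rab8b (adjusted p = 0.0277). The probe set called lower (1.16%, against 7.44%) was the brighter one of Rab5b (adjusted p = 0.0450). Differences lay above 0 at 53 of the 86, with a median of 0.12 against -0.0038 over all probe sets. Both pseudopodia arrays lay above both cell body arrays at 33 of the 86 and below at 13, against 6467 and 6961 of 22519. Probe sets of 1 gene share the arrays and are not replicates.

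Probe sets of the same Rab often gave different sizes. Of 27 Rab genes with several tested probe sets, 11 had all differences above 0, 5 had all below 0 and 11 had both signs. Of 42 Rab probe sets other than the brightest, 30 (71.4%) had its sign, close to the 71.1% of 8065 over all genes. At several genes a probe set other than the brightest had the larger difference. For Rab10 the brightest gave 0.49, a dimmer one, at 834 and 1037 against 543 and 533, gave 0.79 (adjusted p = 0.0536) and the other 0.13. For Rab11a a dimmer one, at 409 and 374 against 221 and 254, gave 0.72 (adjusted p = 0.0544).

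Rab6a, Rab1a and Rab2a had the same feature. A Rab6a probe set at 1549 and 1383 against 1026 and 967 gave 0.56 (adjusted p = 0.0841), while the others gave 0.16 and 0.04. The second probe set of Rab1a, at 774 and 688 against 516 and 519.6, gave 0.49 (adjusted p = 0.104), against 0.06 at the brightest. The 4 tested probe sets of Rab2a, which sorts cargo between the reticulum and Golgi, ran from 0.14 to 0.70, and all but the brightest were separate above. For Rab14, 5 of 6 tested probe sets were above 0, and they ran from -0.0078 to 0.58. In contrast, Rab43 probe sets gave 0.80, 0.03 and -0.54, and those of Rab7b 0.35 and -0.56, so that no direction can be given for either gene. None of the probe sets named in this paragraph passed the adjusted threshold.

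Proteins that load, switch and read Rabs were taken from a list of 121 genes, of which 113 had a probe set of their own and 100 were tested. Of these, 5 rose in pseudopodia (5.92% of all genes did) and 4 fell (8.69% did), and their median log2 difference was -0.04. Among the genes of lipid attachment and membrane delivery, Chm, the escort protein that presents Rabs to the transferase, rose most. It read 368 and 319.7 in pseudopodia and 133 and 142 in cell bodies, a 2.48-fold rise (log2 difference 1.31, SE 0.14, adjusted p = 0.0166). Its relative Chml read 89.4 and 75.1 against 54.6 and 48.9, also separate above, at 0.66 (adjusted p = 0.0560). Rabggta, the alpha subunit of that transferase, fell by 0.87 (SE 0.18, adjusted p = 0.0408), from 225 and 209.9 in cell bodies to 136 and 103. Its partner subunit Rabggtb had -0.18 (adjusted p = 0.513), and Gdi2, which extracts Rabs from membranes, had 0.34 (adjusted p = 0.171).

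Exchange factors held 1 call higher and 1 lower among 27 tested, and GTPase-activating proteins 2 higher and 1 lower among 32. Of all genes 5.92% were called higher and 8.69% lower, and counts this small do not set either class apart. The values below are those of the brightest probe set of each gene. Among 27 tested exchange factors, Sbf2, a DENN-domain protein, rose by 0.74 (SE 0.13, adjusted p = 0.0280) and its paralogue Sbf1 fell by 0.63 (SE 0.13, adjusted p = 0.0385). Among 32 GTPase-activating proteins, Tbc1d15, which acts on Rab7, rose by 0.97 (SE 0.14, adjusted p = 0.0196), at 981 and 999 against 477 and 535.5. Tbc1d12 rose by 0.75 (SE 0.14), and Tbc1d25, which acts on Rab33b, fell by 0.65 (SE 0.13, adjusted p = 0.0405). Among 33 effectors, Rabep1 (rabaptin-5), which links Rab5 to its exchange factor, rose by 0.75 (SE 0.13, adjusted p = 0.0301), at 483 and 529 against 309 and 293. Zfyve27 (protrudin), a Rab11 partner of the endoplasmic reticulum, fell by 1.49 (SE 0.15, adjusted p = 0.0166), at 64.2 and 55.0 in pseudopodia against 179 and 159.8 in cell bodies.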

How the data were processed

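Total RNA of 4 samples was labelled with biotin and read on 1 Affymetrix mouse array each. The deposited table holds 1 linear intensity per probe set. For the summary of probes, the scaling and the software, nothing is stated in the labels or the file headers. The array records list the same chip lot, fluidics station and scan day for all arrays.

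Values were taken as log2(intensity + 1), with no further scaling. The 64 control probe sets were left out. Each gene was read at its brightest probe set with a single symbol, and dim genes were removed by the filter stated in the text. Gene IDs of all 58 Rab genes matched RefSeq (GRCm38.p6). Pseudopodia and cell bodies were compared with limma 3.58.1 in R 4.3.3 (lmFit, eBayes, two-sided, no covariate, 2 residual and 2.90 prior degrees of freedom for genes), with Benjamini-Hochberg adjustment over all genes (or all probe sets). The script was tested on simulated data. Named were all called genes, members of their families, the brightest, and the highest and lowest differences, other members by values. Members and lists were chosen with earlier results of these data known. Alternatives covered the pseudocount, scaling, filter, probe set choice, variance prior, replicate block and leaving out each array. Protein and transcript sequences were not used here.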

Additional observations from a re-analysis of the deposited data

How the results depend on the processing

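Each choice was changed alone. Of the 44 tested Rab genes, 22 kept their direction in every setting in which they were tested, Rab5a, Rab5b and Rab8b among them. Rab genes called higher were 2, and became 4 with a pseudocount of 16 or the mean over the probe sets of a gene, 5 with quantile normalization, a mean intensity of at least 100 or a variance trend, and 0 without a filter. Rab genes called lower were 1, and became 2 with median centring and 0 without a filter or with a mean intensity of at least 100, where Rab5b was not tested. Rab probe sets called higher were 2, and became 4 with the pseudocount or quantile normalization, 8 with the higher minimum or the variance trend, and 0 without a filter. Those called lower were 1, and 0 without a filter or with the higher minimum. Regulators called higher were 5, and became 9 with the higher minimum, 8 with the variance trend and 0 without a filter. Those called lower were 4, and became 7 with the pseudocount, median centring, the higher minimum or the variance trend, and 0 without a filter. Over all genes the calls in both directions were 1654 of 11320, and 2 of 18193 without a filter, where 3844 genes had an unadjusted p under 0.05. They were 1889 with the pseudocount, 2012 with median centring, 1736 with quantile normalization and 2564 with the variance trend. With the higher minimum they were 2211 of 9030, and with the mean over probe sets 1488 of 10433. Over all probe sets they were 2645, and 3216 with the pseudocount, 2902 with quantile normalization, 3371 of 15863 with the higher minimum and 4440 with the variance trend. The cause of these changes was not tested. Fits with any 1 array left out have 1 array in a group, too few to judge calls, so their counts are not compared.

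With the replicate block, 5 Rab genes, 5 Rab probe sets and 8 regulators were called higher, and 1, 1 and 5 lower. Calls over all genes and all probe sets were then 2202 and 3350, in both directions. Same-numbered samples deviated together with a correlation of 0.342 over tested genes, but there are only 2 numbers and the labels do not say that they mark a shared culture.

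Some uncalled genes changed sign, most of them near 0 in the values reported. Further from 0 were Rab18, Rab7b, Rab3d, Rab12 and Rab26 (0.44, 0.35, 0.20, 0.17 and -0.17). With quantile normalization the genes that changed sign were Rab11b (0.0010), Rab1b (0.063), Rab22a (0.072), Rab32 (0.062), Rab3a (0.055), Rab4b (0.010), Rab5c (0.094) and Rab7 (0.098). With median centring they were Rab21 (-0.015), Rab23 (-0.0037), Rab31 (-0.027), Rab43 (-0.0070) and Rab8a (-0.0051). With the mean over probe sets they were Rab22a (0.072), Rab23 (-0.21), Rab7 (0.043), Rab7b (-0.0064) and the ratio of Rab2a to Rab2b (0.045). Without probe sets that may match several transcripts they were Rab12 (-0.058) and Rab18 (-0.28). With 1 array left out, log2 differences spanned 0 at Rab12 (-0.043 to 0.38), Rab1a (-0.20 to 0.32), Rab1b (-0.19 to 0.11), Rab21 (-0.17 to 0.20), Rab22a (-0.029 to 0.012), Rab23 (-0.023 to 0.083), Rab26 (-0.39 to 0.050), Rab27a (-0.34 to 0.29), Rab31 (-0.072 to 0.085), Rab32 (-0.18 to 0.18), Rab38 (-0.20 to 0.064), Rab3a (-0.090 to 0.076), Rab3d (-0.17 to 0.57), Rab43 (-0.14 to 0.19), Rab4b (-0.21 to 0.032), Rab5c (-0.14 to 0.069), Rab6b (-0.31 to 0.059), Rab7 (-0.14 to 0.094) and Rab8a (-0.032 to 0.089). The number of arrays and the floor of 20 limit the precision of every value.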

Other observations

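Some proteins that act on Rabs come in paralogues that lay on different sides of 0. Others lay on the same side, such as Chm and Chml (1.31 and 0.66) or Tbc1d10a and Tbc1d10b (-0.28 and -0.31). How many pairs lay either way was not counted. The pairs that follow were chosen after their values were seen, from the list described above, because they lay on different sides. The effector Rabep1 rose by 0.75, while Rabep2, which shares its role, read 1021 and 1148 in pseudopodia against 1354 and 1392 in cell bodies, at a log2 difference of -0.34 (adjusted p = 0.170). Evi5, a GTPase-activating protein of the Rab11 route, read 610.3 and 919 against 451 and 337, at 0.94 (adjusted p = 0.0795), and Evi5l read 101 and 110.5 against 149 and 116, at -0.31 (adjusted p = 0.305). The difference within these pairs was not tested.

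Other partners of Rab5 did not pass limma's test. Its exchange factors Rabgef1, Gapvd1 and Rin1 had log2 differences of 0.14, 0.08 and -0.28, and its effectors Appl1, Rbsn and Eea1 had 0.41, 0.24 and -0.14. Among partners of Rab8, the exchange factor Rab3ip (Rabin8) read 1443 and 1443 against 1324 and 1399, at 0.08 (adjusted p = 0.704). The Rab8 effectors Ehbp1 and Micall1 had 0.34 and -0.28, and Micall2 had -0.60 (adjusted p = 0.0610), with both of its pseudopodia readings, 461 and 545, under both cell body readings, 748 and 769.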
